A study of Mus musculus with 18 samples.

Results

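Adriamycin and ultraviolet light (UV) were compared directly in R1E cells, a mouse embryonic stem (ES) cell line grown with leukemia inhibitory factor, which keeps such cells undifferentiated. The comparison used 8 of the 18 arrays of the study, the 4 labelled R1E Adriamycin and the 4 labelled R1E UV, chosen by those labels. Adriamycin was given at 0.5 µM for 8 h, and UV at 25 J/m² with RNA also taken at 8 h. The 4 mock-treated R1E arrays are shown only to tell which agent moved a gene, and 3 untreated and 3 adriamycin-treated (0.5 µM, 8 h) arrays of p53-/- ES cells are given beside some results. The genotype of the R1E cells is not labelled, nor whether the arrays of 1 group hold separate cultures, and p-values then reflect only how far these arrays differ from each other, which may be technical. Each agent was given at 1 dose, in units of a different kind, so the agent and the strength of the damage cannot be told apart.

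Adriamycin (doxorubicin) inserts into DNA and traps topoisomerase II on it, which leaves double-strand breaks. UV links neighbouring pyrimidines, and these bulky lesions stall elongating RNA polymerase II until nucleotide excision repair removes them. Both kinds of damage stabilise the transcription factor p53, which switches on genes of cell cycle arrest, repair and death, and ES cells respond to damage with loss of pluripotency factors and with apoptosis.

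Array medians of the deposited log2 intensities, over the 28815 probes with values, lay between 5.563 and 5.613 after adriamycin, 5.580 and 5.603 after UV, and 5.477 and 5.530 in mock, with a precision limited by 4 arrays per group. The cells had the markers of ES cells in all groups. The median level of 12 ES identity genes was 10.724 to 10.758 per mock array, 10.322 to 10.474 after UV and 10.071 to 10.142 after adriamycin, with no overlap between the groups. The median of 24 fibroblast and feeder markers was 5.511 to 5.660 in mock, 5.663 to 5.838 after UV and 5.788 to 5.992 after adriamycin, where the damage groups overlapped. Gene by gene, these 24 changed from mock by a median of -0.008 after adriamycin and 0.019 after UV. At a limma adjusted p below 0.05, adriamycin raised 4 and lowered 5, and UV raised 4 and lowered 3. Over all genes adriamycin raised 22.1% and lowered 25.6%, and UV raised 22.7% and lowered 21.3%. For 27 primitive endoderm and trophectoderm markers the median level was 6.0 to 6.132 in mock, 6.282 to 6.340 after UV and 5.941 to 6.194 after adriamycin. Their median changes gene by gene were -0.04 after UV and -0.055 after adriamycin. For 27 neuroectoderm and mesendoderm markers it was 4.816 to 4.95 in mock, 4.753 to 4.842 after UV and 4.702 to 4.867 after adriamycin. In these bulk samples, fewer cells of a type and less RNA per cell cannot be told apart, and the part of other cell types in the differences below was not tested.

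The agents left R1E cells with clearly different RNA. Of 19935 genes, 3953 (19.8%) were higher after adriamycin than after UV and 4418 (22.2%) were lower, at a Benjamini-Hochberg adjusted p below 0.05 in limma. Differences of at least 2-fold went mostly 1 way: 212 such genes (1.06%) were higher after adriamycin and 56 (0.281%) were lower. The adriamycin and UV arrays did not overlap at all in 7641 genes (38.3%). The median difference over all genes was -0.04 on the log2 scale with a median standard error (SE) of 0.063. The even split of calls held under 1 other scaling and not under a second. Higher genes were 47.2% of the calls as deposited and 47.2% with quantile normalization. They were 34.8% (3414 against 6397) with each array centred on its median over the 19935 genes. That median is not the one over all probes given above. Centring lowered every difference by 0.048, every adriamycin change from mock by 0.125 and every UV change by 0.078.

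The gene with the largest difference was Ano3, of the anoctamin family of membrane proteins. Its log2 level was 8.84, 8.78, 8.84 and 8.76 on the 4 adriamycin arrays, 6.28, 6.02, 5.88 and 6.20 on the UV arrays and 5.69, 5.98, 5.98 and 5.46 in mock. All adriamycin arrays stood far above the rest, and the UV and mock arrays overlapped. The difference between the agents was 6.55-fold (log2 2.71 ± 0.104 SE, n = 4 per group, limma adjusted p = 2.24e-11), and a second probe of the gene gave 2.33.

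Egfr, the receptor of epidermal growth factor, measured 8.74, 8.68, 8.76 and 8.71 after adriamycin, 6.59, 6.64, 6.47 and 6.54 after UV and 5.82, 5.67, 5.81 and 5.82 in mock, so that both agents raised it and adriamycin by far the more (4.47-fold between them, log2 2.16 ± 0.052, adjusted p = 2.37e-13). Plxdc2, a membrane protein with a plexin domain, moved in opposite directions: 8.95, 8.94, 8.76 and 8.85 after adriamycin, 6.23, 6.42, 6.34 and 6.29 after UV and 6.89, 6.68, 6.76 and 6.74 in mock. Its arrays fell into 3 separate groups with UV lowest (5.88-fold between the agents). Itga8, an integrin subunit, stood at 7.59, 7.35, 7.41 and 7.24 after adriamycin against 5.62, 5.62, 5.71 and 5.64 after UV (3.36-fold).

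Alox5, the lipoxygenase that starts leukotriene synthesis, rose after both agents, by 3.98 after adriamycin and 2.23 after UV on the log2 scale. It stayed 3.36-fold apart, with the lowest adriamycin array at 9.07 and the highest UV array at 7.41. Cyp4f39, a cytochrome P450, was 3.54-fold higher after adriamycin and Fbxo39, an F-box protein, 3.10-fold. Rb1, the retinoblastoma tumour suppressor that holds E2F factors in check, measured 9.59, 9.56, 9.57 and 9.48 after adriamycin, 7.94, 8.0, 8.01 and 7.98 after UV and 7.73, 7.70, 7.60 and 7.44 in mock (2.96-fold between the agents, log2 1.57 ± 0.060, adjusted p = 2.01e-11). UV raised it 1.29-fold and adriamycin 3.82-fold.

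The 20 largest higher genes were 2.89- to 6.55-fold apart. All 20 rose after adriamycin. UV raised 11 of them, lowered 7 and left 2 without a call, and adriamycin made the larger change from mock in 18.

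Pid1, an adaptor with a phosphotyrosine-binding domain, and Arhgap28 are shown with their promoters because each holds a match to the p53 half-site, the element that p53 binds in pairs. Pid1 measured 8.48, 8.53, 8.20 and 8.31 after adriamycin, 6.83, 6.73, 6.76 and 6.81 after UV and 6.61, 6.39, 6.47 and 6.46 in mock. Arhgap28 measured 8.75, 8.60, 8.79 and 8.72, 7.06, 7.03, 7.03 and 7.0 and 7.19, 7.14, 7.16 and 7.09. Adriamycin raised both by more than 2-fold, UV raised Pid1 slightly, and Arhgap28 had no call after UV. The promoters run from 250 bases before to 50 bases after the start site in RefSeq, build GRCm38.p6, 5′ to 3′ on the gene's strand, with the half-site in capitals. That of Pid1 is at chr1:84284596-84284895, minus strand, with the site at -48 from the start, and that of Arhgap28 at chr17:68004059-68004358, minus strand, with the site at 35.
Pid1: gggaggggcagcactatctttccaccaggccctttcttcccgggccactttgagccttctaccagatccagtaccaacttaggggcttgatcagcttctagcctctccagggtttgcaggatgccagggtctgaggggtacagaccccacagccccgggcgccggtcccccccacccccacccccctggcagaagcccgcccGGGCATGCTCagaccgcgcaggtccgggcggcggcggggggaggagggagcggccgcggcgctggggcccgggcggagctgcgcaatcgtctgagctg
Arhgap28: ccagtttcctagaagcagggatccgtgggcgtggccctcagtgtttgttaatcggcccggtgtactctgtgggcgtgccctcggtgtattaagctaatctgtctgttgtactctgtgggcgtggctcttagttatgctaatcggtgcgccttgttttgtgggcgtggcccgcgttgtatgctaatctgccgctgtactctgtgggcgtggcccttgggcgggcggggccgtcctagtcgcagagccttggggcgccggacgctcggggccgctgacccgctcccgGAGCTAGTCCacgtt
A half-site, searched on both strands, was in 13.2% of 227 promoters of genes at least 2-fold higher after adriamycin and in 3.77% of 53 promoters of genes at least 2-fold lower, against 7.35% of 19175 promoters of all measured genes. Promoters were found for 15612 of the 19935 genes. A match in this window is a description and not a bound site.

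In the other direction the largest difference was in Nr0b1 (DAX1), a nuclear receptor of the pluripotency network. It measured 8.94, 8.74, 8.86 and 9.04 after adriamycin, 10.99, 10.92, 11.05 and 11.06 after UV and 11.24, 11.18, 11.22 and 11.20 in mock. Adriamycin lowered it 4.99-fold while UV took it only 1.15-fold below mock (4.32-fold between the agents, log2 -2.11 ± 0.061, adjusted p = 1.4e-12). Prdm14, which represses differentiation in naive cells, stood at 5.54, 5.58, 5.56 and 5.49 after adriamycin, 7.26, 7.33, 7.30 and 7.38 after UV and 8.38, 8.28, 8.27 and 8.32 in mock, in 3 separate groups. Spry4, a feedback inhibitor of receptor tyrosine kinase signalling, measured 7.44, 7.35, 7.38 and 7.28 after adriamycin but 9.26, 9.40, 9.37 and 9.54 after UV and 9.39, 9.32, 9.30 and 9.30 in mock, where UV and mock overlapped.

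The hormone Apela was 3.41-fold lower after adriamycin than after UV, Bmp4, a bone morphogenetic protein, 3.14-fold, the thyrotropin-releasing hormone gene Trh 3.14-fold, and the growth factors Fgf17 and Fgf15 2.87- and 2.51-fold. Bmp4 measured 5.70, 5.78, 5.87 and 5.73 after adriamycin, 7.50, 7.39, 7.34 and 7.45 after UV and 8.07, 8.01, 8.11 and 7.95 in mock. The zinc finger factors Zic5 and Zic2 were 3.37- and 3.31-fold lower, although a dimmer probe of Zic5 gave only -0.42. Ccnd1 (cyclin D1), which drives cells through G1, stood at 8.24, 8.30, 8.27 and 8.25 after adriamycin against 9.54, 9.65, 9.57 and 9.60 after UV and 9.52, 9.59, 9.53 and 9.60 in mock. The gap was 2.50-fold, and the UV and mock arrays overlapped. Of these 20 genes, 2.48- to 4.32-fold apart, all fell after adriamycin, UV lowered 16, raised 2 and left 2 without a call, and adriamycin made the larger change in all 20.

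**Figure D1:**
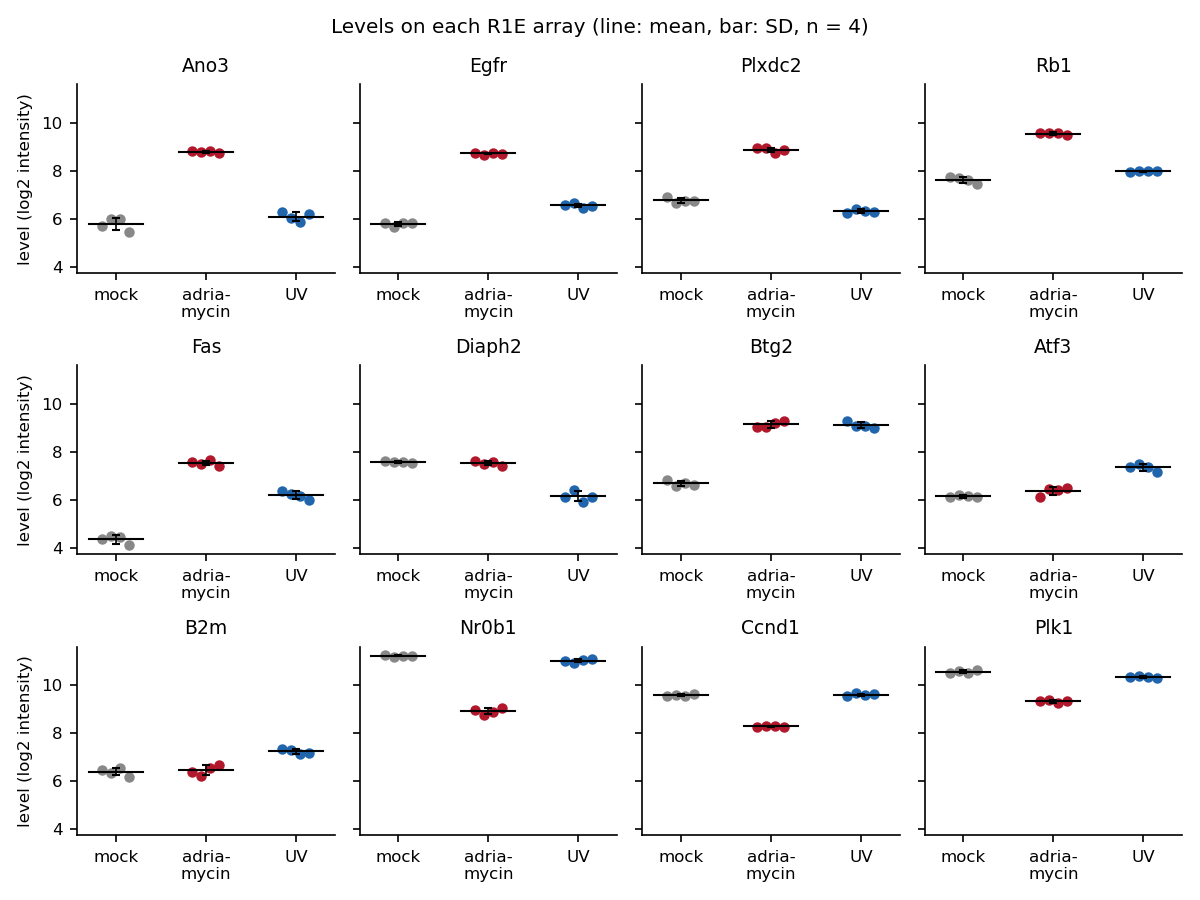
Log2 level of 12 genes (vertical axis) on each of the 4 mock, 4 adriamycin and 4 UV arrays of R1E cells; each point is an array, the line is the group mean and the bar the SD. Ano3, Egfr, Plxdc2, Rb1 and Fas were highest after adriamycin, Diaph2 fell after UV, Btg2 rose after both agents with no call between them, Atf3 and B2m were highest after UV, and Nr0b1, Ccnd1 and Plk1 were lowest after adriamycin.

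Set against mock, the differences came from several kinds of response. For this, a gene was said to be raised or lowered by an agent where its own contrast with mock had an adjusted p below 0.05. Over all genes adriamycin raised 4397 (22.1%) and lowered 5107 (25.6%), and UV raised 4517 (22.7%) and lowered 4238 (21.3%). These contrasts share arrays with each other and with the direct comparison, so the patterns are counts with no test. Adriamycin made the larger change from mock in 61.8% of the 3953 higher genes and in 65.5% of the 4418 lower ones.

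On the higher side the most common pattern, 1340 genes (33.9%), was a rise after both agents that was larger after adriamycin. It includes Egfr, Alox5, Itga8 and Cyp4f39 and 106 genes at least 2-fold apart. Another 845 genes were raised by adriamycin with no call after UV. Among its largest members were Pakap, an A-kinase anchoring protein (3.63-fold), Arhgap28, Pde5a, the phosphodiesterase that degrades cyclic GMP (2.79-fold), the nuclear receptor coactivator Ncoa1 (2.76-fold) and Vcan, the matrix proteoglycan versican (2.63-fold).

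In 359 genes the agents moved in opposite directions, up after adriamycin and down after UV, though only 83 remained when each change from mock also had to reach 0.32 on the log2 scale. Plcb4, a phospholipase C, measured 9.60, 9.60, 9.64 and 9.58 after adriamycin, 7.94, 7.91, 8.02 and 8.03 after UV and 8.78, 8.64, 8.74 and 8.69 in mock, with no overlap between any groups. Ptprg, a receptor tyrosine phosphatase, rose by 0.24 and fell by 1.29 on the log2 scale, and Ust, a sulfotransferase of glycosaminoglycans, rose by 1.1 and fell by 0.57.

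A further 690 genes differed through a fall after UV with no call after adriamycin. Diaph2, a formin of the actin cytoskeleton, stood at 7.63, 7.49, 7.57 and 7.43 after adriamycin and 7.61, 7.56, 7.57 and 7.55 in mock but at 6.13, 6.42, 5.92 and 6.10 after UV. The first pair of groups overlapped and UV lay apart. Exoc6b of the exocyst (2.52-fold between the agents), the F-box gene Fbxl17 (2.44-fold) and Ppp3ca, the catalytic subunit of calcineurin (2.21-fold), had the same pattern. In 566 genes (246 with the minimum of 0.32) both agents lowered the level and UV more, as in Cdkal1, a transfer RNA modifying enzyme (-0.24 after adriamycin and -1.47 after UV), and Adk, adenosine kinase (-0.26 and -1.39). The other 153 higher genes were called against neither mock contrast.

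On the lower side 1436 genes (32.5%) fell after adriamycin with no call after UV, among them Spry4 and Ccnd1, and 1085 (24.6%) fell after both and more after adriamycin, among them Nr0b1, Prdm14, Apela, Zic2 and Bmp4. With centred arrays these counts were 2846 and 1789, and the 1085 became 571 with the minimum of 0.32. In 217 genes adriamycin lowered and UV raised the level, but only 12 met the minimum of 0.32, and without mock replicate 2 or 3 the count was 138 or 139. Trh measured 9.27, 9.15, 9.39 and 9.40 after adriamycin, 10.99, 11.01, 10.93 and 10.88 after UV and 10.72, 10.70, 10.64 and 10.73 in mock, with UV highest. Plaur, the urokinase receptor (adriamycin -1.01, UV 0.31), Hbegf, a ligand of EGFR (-0.94 and 0.31), and Lefty2, an inhibitor of Nodal signalling (-0.72 and 0.48), followed the same course.

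In the other lower genes UV gave the larger rise: 880 rose after UV with no call after adriamycin, and 253 rose after both and more after UV (416 and 121 with the minimum of 0.32). Ccdc116, a coiled-coil protein, stood at 6.63, 6.80, 6.79 and 6.70 after UV against 5.57, 5.58, 5.68 and 5.60 after adriamycin and 5.54, 5.55, 5.62 and 5.70 in mock. Angptl4, a secreted inhibitor of lipoprotein lipase, rose by 0.70 after UV and was at -0.12 after adriamycin. Atf3, a stress-induced transcription factor, measured 7.36, 7.51, 7.36 and 7.18 after UV, 6.13, 6.44, 6.39 and 6.50 after adriamycin and 6.10, 6.20, 6.16 and 6.11 in mock, so that UV raised it 2.31-fold and adriamycin 1.17-fold, with 1 adriamycin array inside the range of mock. The same course was seen in Hyal3, a hyaluronidase family member (2.05 after UV and 1.16 after adriamycin), Sp6 (1.51 and 0.76), a zinc finger factor, and Aqp3 (1.08 and 0.42), a water and glycerol channel. The remaining 547 lower genes (363 without adriamycin replicate 3) were called against neither mock contrast.

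**Figure D2:**
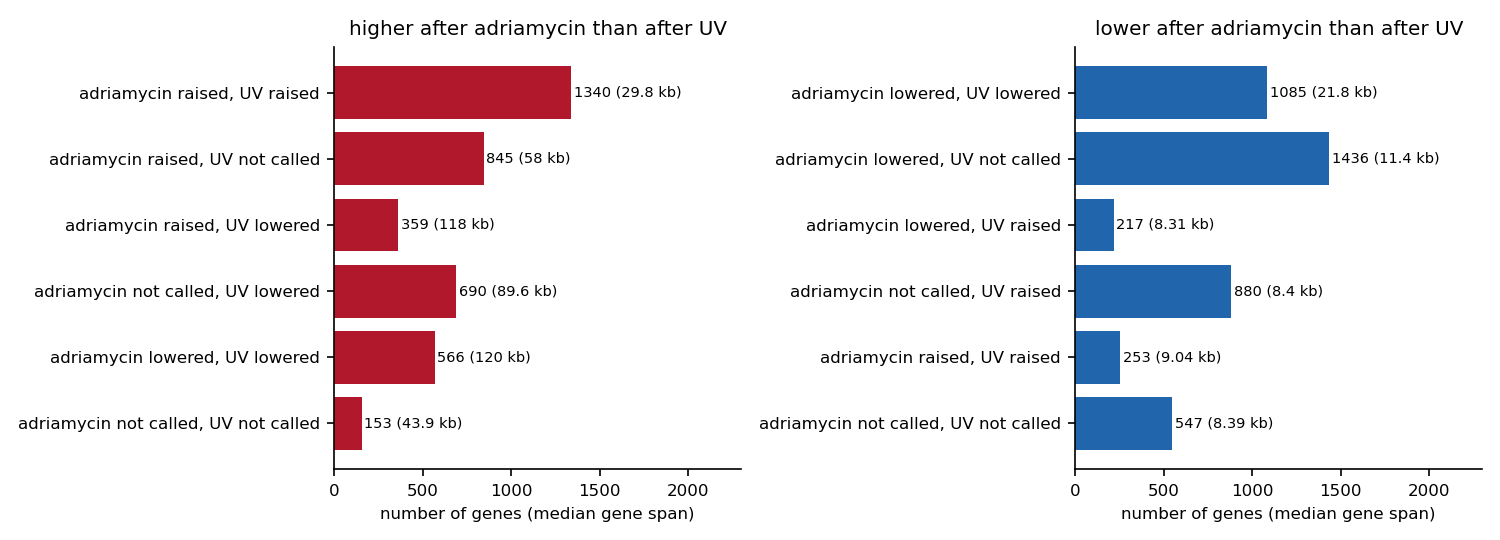
Number of genes (horizontal axis) higher (left) or lower (right) after adriamycin than after UV, by the call of each agent against mock, with the median gene span in brackets. Rises after both agents led on the left with 1340 genes and falls after adriamycin with no UV call on the right with 1436; genes lowered by UV on the left had median spans of 89.6 kb or more, and the 1085 lowered by both on the right had 21.8 kb.

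Targets of p53 were raised by both agents and mostly higher after adriamycin. They were described in 3 lists, and Trp53 itself, Cdkn1a, Bax and Gdf15 were not analysed here. Adriamycin raised 15 of the 19 feedback and arrest targets, 18 of the 22 repair and metabolism targets and 13 of the 18 death receptor and apoptosis targets, and UV 15, 19 and 13. Between the agents, the lists leaned toward adriamycin. Of 19 feedback and arrest targets 12 were higher after adriamycin and 5 lower (median difference 0.22), of 22 repair and metabolism targets 14 were higher and 1 lower (0.37), and of 18 death receptor and apoptosis targets 7 were higher and 3 lower (0.01), where the background is 19.8% and 22.2% of all genes and -0.04. The median of the last list turned negative with centred arrays. The 33 targets higher after adriamycin had a median gene span of 21.9 kb, the 9 lower ones 5.3 kb and the 17 not called 17.7 kb.

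Mdm2, the ubiquitin ligase that degrades p53, measured 10.98, 10.96, 11.07 and 11.01 after adriamycin, 10.43, 10.34, 10.44 and 10.47 after UV and 9.17, 9.15, 9.12 and 9.03 in mock, with the 3 groups apart. The death receptor Fas stood at 7.57, 7.50, 7.66 and 7.43, 6.38, 6.24, 6.14 and 6.0 and 4.38, 4.49, 4.47 and 4.10 in the same order of groups, a 9.07-fold rise after adriamycin and a 3.56-fold rise after UV (2.55-fold between the agents, log2 1.35 ± 0.091, adjusted p = 6.78e-09). Apaf1, the scaffold of the apoptosome, measured 10.12, 10.07, 10.12 and 10.12 after adriamycin against 8.86, 8.84, 8.87 and 8.85 after UV. These 3 genes rose after both agents and were higher after adriamycin on every array.

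Dglucy, D-glutamate cyclase, had the widest gap of the 59 measured p53 targets (2.88-fold). Polk, a translesion DNA polymerase, was 1.85-fold higher, Eda2r, a receptor of the tumour necrosis factor family, 1.70-fold, Ephx1, epoxide hydrolase, 1.66-fold, Trp73, the p53 relative p73, 1.42-fold, and the phosphatase Ppm1d 1.33-fold. Mdm4, the partner of Mdm2, rose by 0.37 after adriamycin and was at -0.011 after UV. Btg2, an antiproliferative gene, did not differ beyond its error (difference 0.037, 95% interval -0.12 to 0.20, adjusted p = 0.724) although it rose 5.48-fold and 5.34-fold.

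Several p53 targets went the other way. The stress gene Gadd45b fell after both agents and stood at 7.32, 7.12, 7.53 and 7.77 after adriamycin against 8.50, 8.24, 8.35 and 8.22 after UV. Plk3, a polo-like kinase of the stress response, and Tigar, which lowers fructose-2,6-bisphosphate, fell after adriamycin (-0.51 and -0.31) and rose after UV (0.37 and 0.35). Pdrg1 rose after both and more after UV (1.57 against 1.19).

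**Figure D3:**
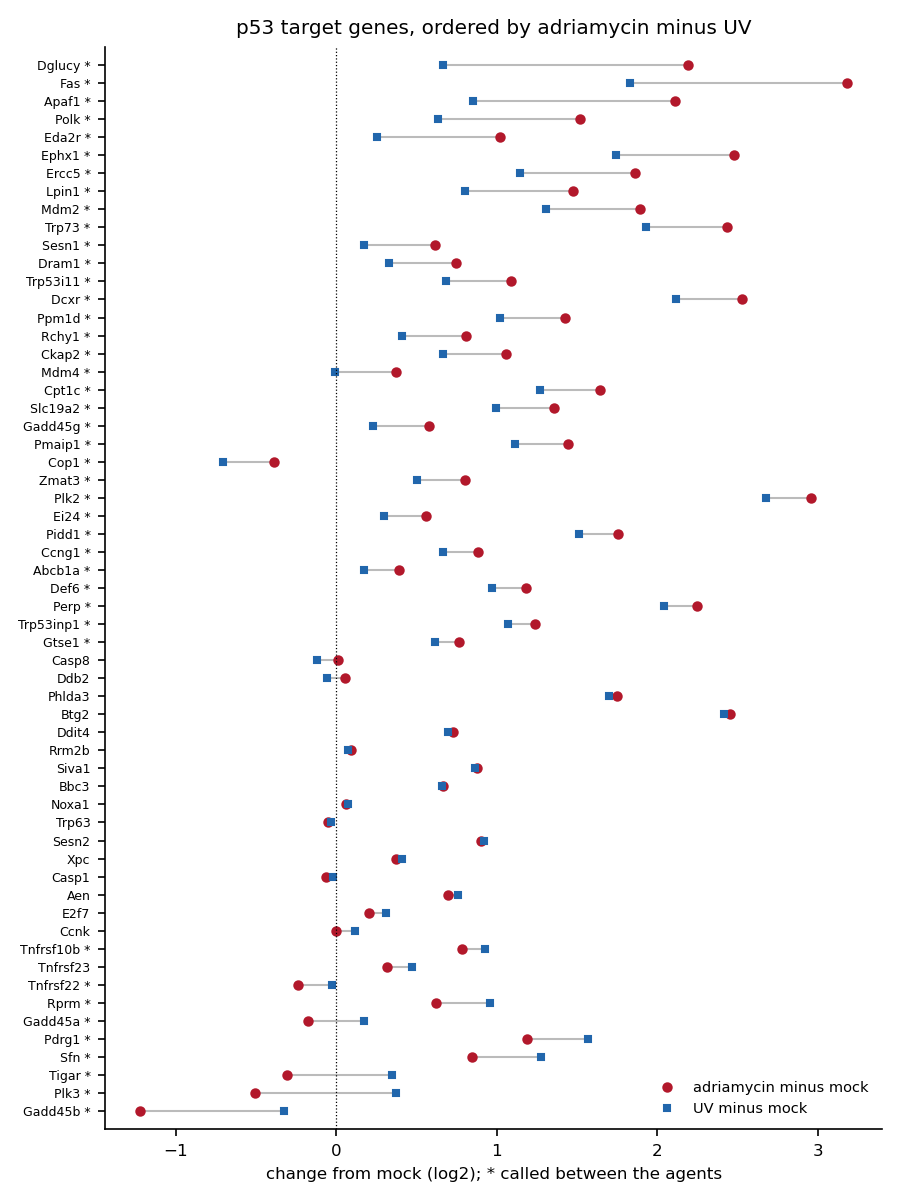
Change from mock (horizontal axis, log2, means of 4 arrays per group) after adriamycin (circles) and UV (squares) for the 59 measured p53 target genes, ordered by the difference between the agents, with a star where that difference was called. Most of the genes lie right of 0 for both agents; 33 were higher after adriamycin, 9 lower and 17 not called.

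Genes of the pluripotency network were lower after adriamycin than after UV. Of 35 core and naive pluripotency genes 23 were lower and 1 higher (65.7% and 2.86%, median difference -0.41), and of 18 genes of the formative and primed state 13 were lower and 1 higher (median -0.24). Among the 12 ES identity markers 8 were lower and 1 higher. Nanog, a core pluripotency factor, measured 10.42, 10.43, 10.75 and 10.72 after adriamycin, 11.35, 11.29, 11.30 and 11.35 after UV and 11.76, 11.74, 11.72 and 11.57 in mock, with the 3 groups apart. Zfp42 (REX1), a marker of naive cells, stood at 8.66, 8.57, 8.56 and 8.54 after adriamycin, 9.97, 9.94, 9.87 and 9.77 after UV and 10.44, 10.19, 10.30 and 10.39 in mock. Esrrb (-0.48 between the agents), Mycn (-1.20) and Otx2, a factor of the exit from the naive state (-1.30), also fell after both agents and more after adriamycin.

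Pou5f1 (OCT4) and Sox2, the central pair of the network, were not called between the agents. Pou5f1 measured 11.86, 11.84, 11.81 and 11.75 after adriamycin and 11.84, 11.98, 11.91 and 11.97 after UV, with overlap (difference -0.11, 95% interval -0.22 to 0.004, adjusted p = 0.117), although centred arrays gave -0.15 and a call (adjusted p = 0.0241). Sox2 fell after both agents, by 0.55 and 0.50 (difference -0.043, interval -0.18 to 0.10). Klf4 was lower after adriamycin by a small margin (-0.29 ± 0.063, adjusted p = 0.00129). The member higher after adriamycin was Prdm16 (0.29) in the core and naive list, Cdh2 (0.25) in the formative and primed list and Fut4 (0.52) among the ES identity markers.

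Feedback genes of ERK signalling, which runs below FGF receptors in ES cells, were mostly lower after adriamycin. In the list of ERK feedback and ETS targets 14 of 20 were lower after adriamycin and 2 higher (median -0.31): besides Spry4, these were Spry2 (-1.19) and the ERK phosphatases Dusp4 (-1.03) and Dusp6 (-0.91), while the ETS factor Ets1 was higher (0.43). Dusp4 had no call after UV and Dusp6 was -0.21 below mock there. Of 12 genes of the MYC family 7 were lower and 3 higher. Myc measured 7.65, 7.65, 7.60 and 7.52 after adriamycin, 8.57, 8.63, 8.53 and 8.59 after UV and 8.44, 8.42, 8.35 and 8.48 in mock, with UV slightly above mock and adriamycin well below it, while the MYC antagonist Mxd4 was higher (0.63). In the LIF and STAT3 list, 6 of 15 were higher and 5 lower, with the feedback inhibitor Socs2 (-1.0) and the kinase Pim1 (-0.91) lower and the STAT inhibitor Pias1 (0.79) and the kinase Jak2 (0.54) higher.

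In the Nodal, BMP and TGF-beta pathway 13 of 29 were lower and 8 higher, and ligands of the same family split. Bmp4, Lefty2 and Tgfb1 (-0.74) were lower after adriamycin and Bmp7 higher (1.01), as was the receptor gene Tgfbr1 (0.71). Bmp7 rose after both agents, by 2.09 and 1.08. Of the BMP-induced Id genes, Id4 was lower (-1.02) and Id2 higher (0.59). Lefty1, unlike Lefty2, rose after both agents and was not called between them (0.086, interval -0.10 to 0.27).

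Of 19 measured Wnt ligands 4 were higher and 3 lower (21.1% and 15.8%), near the 19.8% and 22.2% of all genes. Wnt8b (0.66), Wnt3 (0.64) and Wnt4 (0.62) were higher after adriamycin and raised by both agents, although a dimmer probe of Wnt4 gave only 0.06. Of 32 Wnt receptors, nuclear factors and feedback genes 11 were lower and 7 higher. The Wnt antagonist Sfrp1 (-1.29), the palmitoyltransferase Porcn that matures Wnt (-0.83) and the receptor Fzd7 (-0.65) were lower, and the Wnt secretion factor Wls (0.51) and Apc (0.47) higher. In the Notch list (7 higher and 9 lower of 26, 26.9% and 34.6%), Notch4 was lower (-1.51) and Notch1 (0.54) and the ligand Jag2 (0.55) higher.

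Integrins and matrix receptors were mostly higher after adriamycin, 14 of 23 with 2 lower (60.9% and 8.70%, median 0.33). Besides Itga8 these were Itgav (0.86), Itgb5 (0.76) and the collagen receptor Ddr1 (0.76), against Itga5, the fibronectin receptor subunit, at -1.31. Itgav and Itgb5 rose after adriamycin; UV lowered Itgb5 (-0.33), and Itgav was at -0.12 after UV. Among 38 semaphorins, plexins and ephrins 14 were higher and 4 lower (36.8% and 10.5%), with the co-receptors divided: Nrp1 was higher (1.01) and Nrp2 lower (-0.70). The median gene span of this list was 111.8 kb, and of all genes of 100 to 300 kb 58.4% were higher and 4.76% lower. Of 17 genes of the EGF receptor family and ligands 4 were higher and 1 lower (23.5% and 5.88%). The receptor Egfr and its ligand Hbegf lay on opposite sides (2.16 and -1.24).

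Immediate early genes stood higher after UV wherever a difference was called. None of 29 genes of the AP-1 and immediate early list was higher after adriamycin and 16 were lower (55.2%, median -0.20). The median gene span of this list was 5.3 kb. Of all genes under 10 kb above the median gene level, 54.3% were lower and 6.48% higher. Jun, a subunit of AP-1, rose after both agents, by 0.92 after adriamycin and 1.33 after UV (difference -0.41 ± 0.071, adjusted p = 0.000204). Ier2 (-0.78), Csrnp1 (-0.60) and the phosphatase Dusp1 (-0.51) fell after adriamycin and had no call after UV. Fosl1 rose 3.89-fold and 3.83-fold and was not called between the agents (interval -0.27 to 0.32).

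Immune genes that were called stood mostly higher after UV: of 40 genes of NF-kB, interferon and antigen presentation 17 were lower after adriamycin and 4 higher (42.5% and 10%). The median gene span of this list was 8.8 kb. Of all genes under 10 kb, 28.1% were lower and 3.86% higher. Of those above the median gene level, 54.3% were lower and 6.48% higher. The part of gene span in the list was not tested. B2m, the light chain of MHC class I, measured 7.34, 7.27, 7.12 and 7.18 after UV, 6.35, 6.22, 6.53 and 6.67 after adriamycin and 6.44, 6.34, 6.52 and 6.18 in mock, where adriamycin and mock overlapped. Irf1 fell after both agents and more after adriamycin (-1.23 against -0.57, with -0.20 between the agents by a dimmer probe against -0.66), and Ddx58, the RNA sensor RIG-I, was 3.07-fold lower. Tap1, which carries peptides to MHC class I, rose 11.6-fold after adriamycin and 8.08-fold after UV, and the chemokine Cxcl10 was also higher after adriamycin (0.56).

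Of 47 genes of G2/M and mitosis 30 were lower and 4 higher (63.8% and 8.51%, median -0.25). Plk1, the mitotic polo-like kinase, measured 9.34, 9.38, 9.24 and 9.31 after adriamycin, 10.32, 10.37, 10.31 and 10.29 after UV and 10.50, 10.57, 10.51 and 10.61 in mock. Nek2 (-0.71), Aurka (-0.69) and the kinesin Kif20a (-0.67) were lower, and Cenpe, a kinesin of the kinetochore, was higher (0.55). Of 51 genes of replication and G1/S 25 were lower and 7 higher, with Cdk6 (-0.79), Ccne1 (-0.73) and the flap endonuclease Fen1 (-0.63) lower and Pola1, the catalytic subunit of DNA polymerase alpha, higher (0.78). Pola1 fell after both agents and more after UV (-0.32 and -1.09).

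Replication-dependent histones were the list with the largest share lower: 20 of the 24 measured, none higher (83.3%, median -0.35). Only 24 of 58 listed had a probe naming that gene alone, and histone copies are near-identical, so a probe may read several. H2ac4 measured 5.81, 5.39, 6.34 and 5.82 after adriamycin, 6.98, 6.82, 6.95 and 6.78 after UV and 7.75, 7.84, 7.57 and 7.59 in mock, and H2bc3 6.70, 6.62, 6.87 and 6.70, 7.83, 7.68, 7.55 and 7.51 and 8.30, 8.23, 8.10 and 8.05. In both genes the groups lay apart in the order adriamycin, UV, mock. Their promoters are shown because CCAAT, the element bound by NF-Y and known from cell cycle genes, recurs in this list: it was in 85.0% of 20 histone promoters and 73.3% of 45 promoters of the G2/M list, against 37.4% of all 19175. Capitals mark CCAAT or its reverse complement, 3 matches in H2bc3 (chr13:23746484-23746783, plus strand) and 2 in H2ac4 (chr13:23750838-23751137, plus strand), RefSeq GRCm38.p6.
H2bc3: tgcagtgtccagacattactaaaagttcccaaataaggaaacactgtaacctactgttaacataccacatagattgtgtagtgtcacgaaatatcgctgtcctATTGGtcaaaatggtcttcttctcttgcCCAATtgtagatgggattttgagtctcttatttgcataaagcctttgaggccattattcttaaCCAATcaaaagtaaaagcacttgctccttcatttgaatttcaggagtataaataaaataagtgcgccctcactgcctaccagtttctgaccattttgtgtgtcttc
H2ac4: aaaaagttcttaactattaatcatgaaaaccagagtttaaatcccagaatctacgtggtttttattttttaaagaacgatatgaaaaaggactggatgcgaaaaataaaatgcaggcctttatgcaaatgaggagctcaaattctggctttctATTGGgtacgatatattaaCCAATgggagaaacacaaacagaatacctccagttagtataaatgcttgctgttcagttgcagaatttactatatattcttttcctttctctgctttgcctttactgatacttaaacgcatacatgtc
The TATAAA box was in 65.0% of the histone promoters and 11.5% of all. Of the 24 histones 8 were also lowered by adriamycin in the p53-/- cells, where 16 genes in all (0.0803%) were lowered and 3 (0.0150%) raised.

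DNA repair genes were described in 3 lists. Of 22 genes of end joining and topoisomerases 11 were higher after adriamycin and 5 lower (50% and 22.7%). Nhej1 (XLF), an end-joining factor, measured 7.99, 7.87, 8.07 and 7.92 after adriamycin, 6.93, 6.69, 6.91 and 6.67 after UV and 6.78, 6.83, 6.73 and 6.72 in mock, where UV and mock overlapped. Top2b, topoisomerase II beta, which adriamycin can trap on DNA, stood at 8.39, 8.34, 8.37 and 8.27 after adriamycin and 8.29, 8.37, 8.32 and 8.21 in mock but at 7.58, 7.34, 7.50 and 7.57 after UV. Prkdc, the catalytic subunit of the DNA-dependent kinase, and Xrcc4, the partner of ligase IV, also fell after UV with no call after adriamycin (-0.61 against 0.004, and -0.86 against -0.17).

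Homologous recombination, Fanconi and checkpoint genes were higher after adriamycin in 16 of 37 and lower in 4 (43.2% and 10.8%). The median gene span was 47.9 kb in this list and 31.7 kb in the end joining list. Of all genes of 30 to 100 kb above the median gene level, 45.2% were higher and 16.8% lower. The part of gene span in these shares was not tested. The helicase gene Wrn (-0.99 after UV and -0.19 after adriamycin), the checkpoint kinase Atr (-0.82 and -0.16) and Fancl (-0.88 and -0.20) fell after UV, and of these adriamycin lowered only Atr. Atrip, the partner of ATR, went the other way (-0.51). Of 32 genes of nucleotide excision repair and translesion synthesis, the pathways that handle UV lesions, 10 were higher after adriamycin and 10 lower. The nuclease gene Ercc5 rose after both agents and more after adriamycin (1.86 and 1.15), as did Rev1 (0.81 and 0.24), while the TFIIH genes Ercc2 (-0.50) and Gtf2h1 (-0.58) were lower. Of 16 drug efflux and anthracycline genes 4 were higher and 4 lower. Abcb1b, a P-glycoprotein that exports doxorubicin, rose 3.70-fold after adriamycin and 2.23-fold after UV.

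Ribosome biogenesis had 27 of 40 lower and 4 higher (67.5%, median -0.26), with Rrs1 (-0.90), Nop56 (-0.81) and Nolc1 (-0.72), none of them called after UV. Sterol and fatty acid synthesis had 16 of 25 lower and 2 higher (64.0%, median -0.32), led by the desaturases Scd1 (-0.90) and Scd2 (-0.72) and the sterol isomerase Ebp (-0.80). In the unfolded protein and integrated stress response 20 of 34 were lower and 6 higher: Atf4, its central factor (-1.35 after adriamycin and -0.77 after UV), and Nupr1 (-1.19 and -0.52) fell after both. Hypoxia and glycolysis genes were 9 lower and 6 higher of 28, with the demethylase Kdm3a lower (-0.90) and Pfkfb4 higher (0.74).

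Of 35 polycomb and trithorax genes 17 were lower after adriamycin and 6 higher, with Phf19 lower (-0.69) and Pcgf3 higher (0.84). Of 27 DNA methylation and heterochromatin genes 12 were lower and 8 higher, and the methylcytosine dioxygenases parted: Tet2 was lower (-0.88) and Tet3 higher (0.53). Of 46 Mediator and elongation genes 20 were lower and 10 higher. Hexim1, which holds the elongation factor P-TEFb inactive, rose by 0.58 after UV and was at -0.055 after adriamycin. Of 30 splicing factors 9 were lower and 8 higher, with Mbnl2 higher (1.08) and Tra2a lower (-0.59).

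Of 19 BCL2 family genes 6 were lower and 4 higher (31.6% and 21.1%, against 22.2% and 19.8% of all genes), with the effector Bak1 lower (-0.57). NRF2 and iron genes had 8 higher and 6 lower of 22 (36.4% and 27.3%). The iron exporter Slc40a1 was higher (0.76) and Hmox1, heme oxygenase, lower (-0.39), having risen after both agents. Heat shock genes had 6 lower and 1 higher of 14, and FGF ligands and receptors 5 and 5 of 16 (31.2% each way). SRF and YAP targets had 8 lower and 6 higher of 21, and genes of the two-cell-like state 3 lower and 5 higher of 14. Fibroblast markers had 4 and 4 of 24 (16.7% each way). Primitive endoderm and trophectoderm markers had 4 lower and 5 higher of 27, and neuroectoderm and mesendoderm markers 8 lower and 3 higher of 27. With centring or quantile normalization the median difference of 10 of the 42 lists turned its sign, all with a median within 0.039 of 0.

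**Figure D4:**
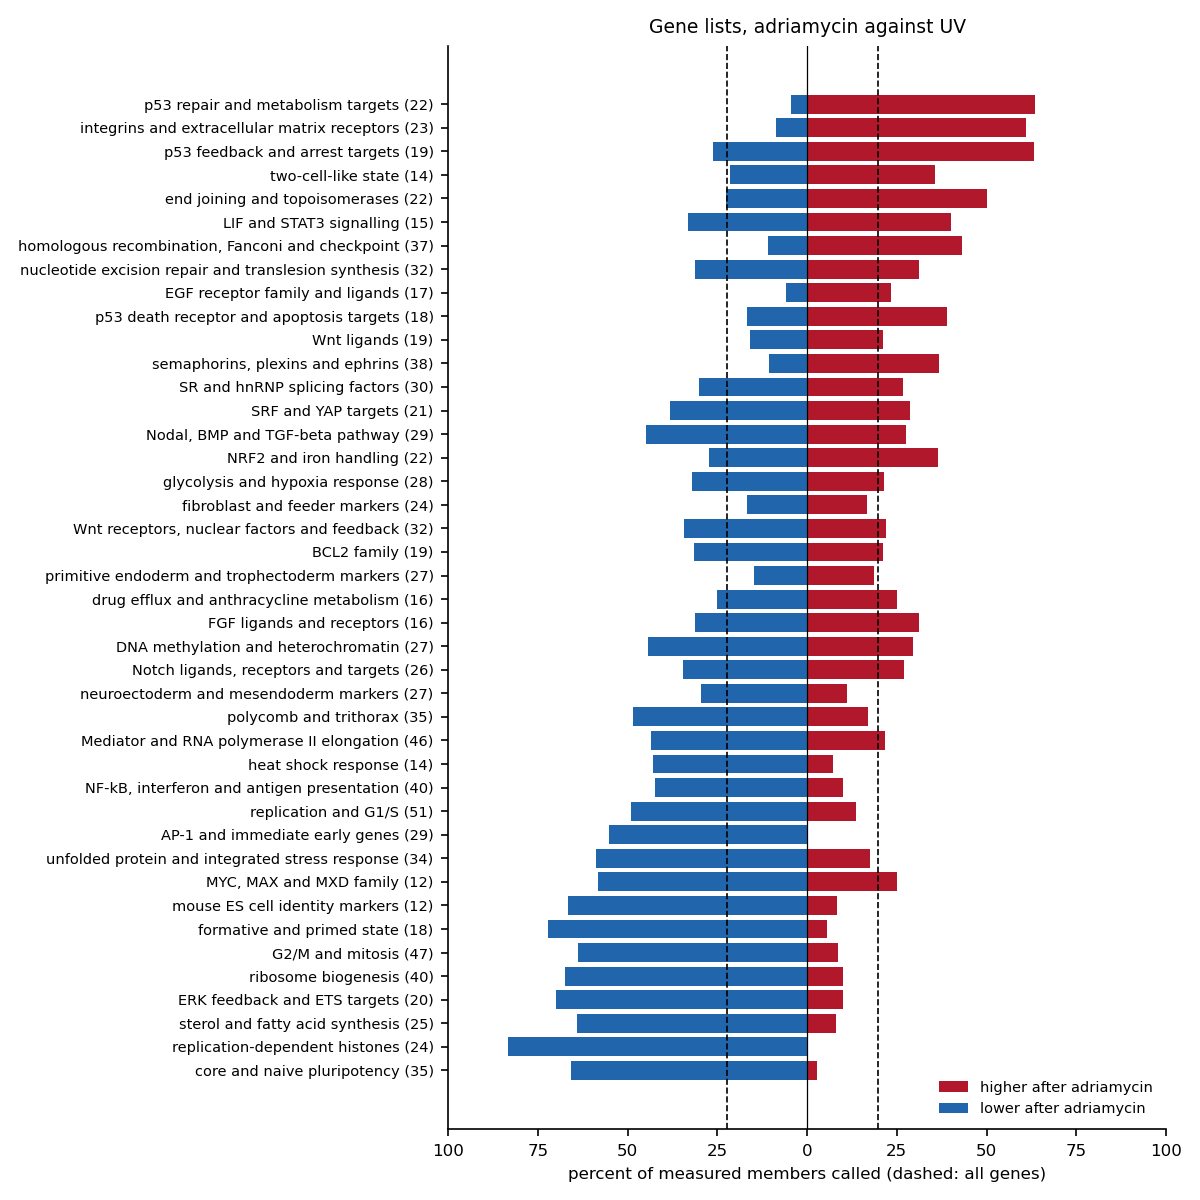
Percent of each list's measured members (number in brackets) higher (right) or lower (left) after adriamycin than after UV, ordered by the list's median difference; dashed lines mark 19.8% and 22.2%, the shares over all genes. p53 repair and metabolism targets are at the top with 63.6% higher, and core and naive pluripotency and replication-dependent histones at the bottom with 65.7% and 83.3% lower.

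Gene span, the genomic distance from the start to the end of a gene, differed between the sides and was not used to choose them. Genes higher after adriamycin had a median span of 61.2 kb and lower genes one of 11.6 kb, against 17.7 kb for all genes. Of 2294 genes above 100 kb, 1253 were higher and 105 lower. Among the genes at least 2-fold apart, 64.0% of the higher ones exceeded 100 kb and 0 of the 56 lower ones did. The median difference of genes above 100 kb was 0.222, and it was 0.221 to 0.227 for each adriamycin array against the UV mean.

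Over genes of all patterns, the trend of the medians with span was in the UV change. It does not describe the 212 genes at least 2-fold higher after adriamycin. Their median change from mock was 1.35 after adriamycin and 0.16 after UV. In the brighter genes (above the median gene level), the median UV change from mock went from 0.12 in 2454 genes under 10 kb to -0.17 in 2970 genes of 30 to 100 kb, -0.48 in 1001 genes of 100 to 300 kb and -0.78 in 127 genes above 300 kb. The median adriamycin change stayed between -0.08 and -0.03 in all 5 classes. The share called higher after adriamycin went from 6.48% to 86.6%, and the share called lower from 54.3% to 2.36%. The gene lists above were set against all genes and were not matched for span or level. With dim genes included the genes above 300 kb had a median difference of 0.08, below the 0.26 of those from 100 to 300 kb.

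Span separated the patterns in the same way. Among the genes higher after adriamycin, those lowered by UV were long, with medians of 118.2 kb where adriamycin raised them, 89.6 kb where it had no call and 119.5 kb where it lowered them. The 1085 genes that UV lowered and adriamycin lowered more had a median of 21.8 kb, with 4.8% above 100 kb. Genes raised by both agents were shorter (29.8 kb where adriamycin raised more and 9.0 kb where UV did). Diaph2 spans 716 kb, Cdkal1 664 kb and Plxdc2 405 kb, against 4.2 kb for Nr0b1, 13 kb for Atf3 and 5.4 kb for B2m. Fbxo39, at 5 kb, is 1 of 7 genes under 10 kb that were at least 2-fold higher after adriamycin.

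**Figure D5:**
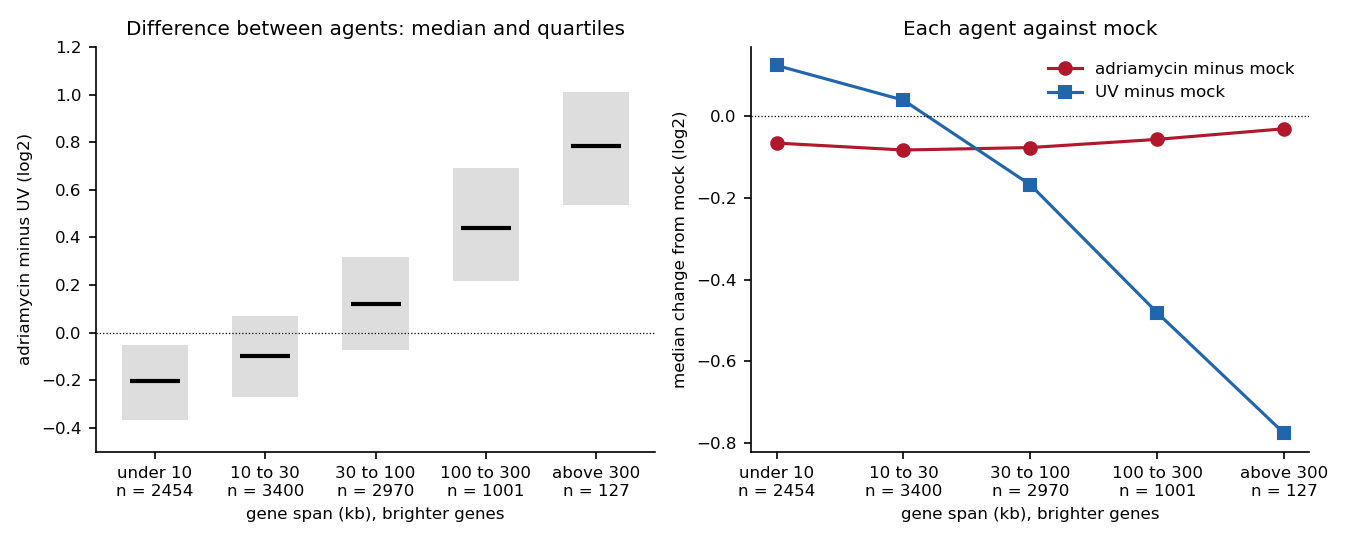
Left: adriamycin minus UV (log2, vertical axis) by gene span class (horizontal axis, kb) in the brighter genes, with the median as a line and the quartiles as a bar. Right: median change from mock of each agent in the same classes. The median difference goes from -0.20 under 10 kb to 0.79 above 300 kb, while the adriamycin line stays near 0 and the UV line falls to -0.78.

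Many genes did not tell the agents apart. In 2495 genes both agents gave a call in the same direction without a call between them, 1219 raised and 1276 lowered, and 89 of these were at least 2-fold from mock after both. The largest were Zfp750, a zinc finger factor of epidermis (up 2.64 and 2.54), Insyn2a (2.75 and 2.54), the magnesium transporter family gene Nipal4 (2.56 and 2.47) and Btg2. Zfp750 measured 8.06, 8.20, 8.0 and 8.06 after adriamycin and 7.99, 8.11, 7.88 and 7.93 after UV, with overlap, against 5.30, 5.42, 5.46 and 5.58 in mock. Its difference was 0.10 with a 95% interval of -0.046 to 0.24. Over the 8 largest such genes the widest interval reached 0.236 to either side. Lef1, a nuclear factor of Wnt signalling, fell after both (-1.75 and -1.80, interval of the difference -0.094 to 0.20), and the p53 target Sesn2 rose after both (0.90 and 0.92, interval -0.15 to 0.11). An interval that includes 0 does not show that the agents act alike.

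The p53-/- cells received adriamycin only, and their arrays were normalized separately, so their effects are set beside those of R1E without a test. The median SE of a change was 0.14 there. The 20 genes with the largest higher differences changed by -0.38 to 0.48 in p53-/- cells and the 20 largest lower ones by -0.68 to 0.49. Limma called none of the 40. Of all 19935 genes it called only 3 raised (0.0150%) and 16 lowered (0.0803%) there, so most sets of 40 genes would hold no call. By limma 6 of the 40 had an unadjusted p below 0.05. The share of all genes below that limit was not taken, so this count cannot be read as many or few. Egfr, with an adriamycin change of 2.94 in R1E, was at 0.15 ± 0.14 in p53-/- cells, Fas at 0.13 ± 0.17 against 3.18, Mdm2 at 0.19 ± 0.14 against 1.89, Nr0b1 at -0.043 ± 0.18 against -2.32, and Prdm14 at 0.15 ± 0.14 against -2.77. Of the histones, 22 of 24 were lowered by adriamycin in R1E and 8 in p53-/- cells. H2ac4 was at -1.66 ± 0.19 against -1.85, and H2bc3 at -1.21 ± 0.12 against -1.45. H2bc4, lowered in R1E (-1.36), was at 0.14 ± 0.34. Plk1 was at -0.71 ± 0.13 against -1.23. Genotype, cell line and array set cannot be told apart in these values.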

How the data were processed

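RNA of 18 arrays from mouse ES cells was measured by the submitters on Affymetrix whole-transcript arrays. The values deposited by the authors are log2 intensities. Per the submitters' processing notes, Affymetrix Expression Console 1.1 was used for the R1E arrays and RMA in Partek 6.4 for the p53-/- arrays, and the algorithm of the former is not stated there. Of 28853 probes, 28815 had values, 21780 of them with 1 gene symbol (1605 had several, 5430 none), and 21689 of these matched RefSeq GRCm38.p6. For the 998 genes with several probes the brightest over the 12 R1E arrays was used, leaving 19935 genes, 19850 with a span. The build of the array design is not stated there either.

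Levels were compared in limma 3.58.1 (R 4.3.3) with lmFit and eBayes over the 12 R1E arrays, with Benjamini-Hochberg adjustment over all genes and calls at an adjusted p below 0.05. Two-sided limma tests and 95% intervals are moderated, and the p53-/- arrays had a fit of their own. In 5 simulations with 200 of the 19935 genes changed, 96.6% of 1.5-fold and 100% of 2-fold differences were recovered with 4.7% false calls. The simulated noise was normal and independent between arrays, and far fewer genes changed than the 8371 called here. The rate of false calls therefore need not hold for the real arrays. Named genes are the 20 largest differences each way with groups apart, the 6 largest per pattern, up to 4 called members per list with the lead direction and 2 against it, the 8 largest moved alike and a panel. Clone, prediction, olfactory, vomeronasal, histone and small RNA names were left out of the largest. Genes and lists were chosen with earlier results of these data known. Alternatives covered scaling, dim genes, probe choice, prior, array weights, arrays in the fit, a replicate block, thresholds and each array left out.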

Additional observations from a re-analysis of the deposited data

Results flagged for a closer look

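Among the genes named above, 24 of 486 groups of 4 arrays (4.94%) had 1 array set apart from the other 3, where chance gives about 1 in 20. In the adriamycin group the array apart and its nearest neighbour measured Angptl4 6.78 against 6.94 (replicate 1), Apaf1 10.07 against 10.12 (replicate 2), Dusp4 5.90 against 5.56 (replicate 4), Fzd7 8.88 against 9.01 (replicate 3), H2bc4 4.06 against 4.72 (replicate 4), Id4 6.05 against 6.23 (replicate 3), Scd1 8.15 against 7.93 (replicate 4), Tigar 7.72 against 7.81 (replicate 4) and Wnt4 7.40 against 7.58 (replicate 4). In the UV group the array apart and its nearest neighbour measured Apela 6.60 against 6.30 (replicate 1), Ebp 7.59 against 7.04 (replicate 1), Fbxl17 7.55 against 7.32 (replicate 2), Hexim1 8.80 against 8.67 (replicate 3), Hmox1 9.69 against 9.43 (replicate 2) and Prdm16 5.50 against 5.56 (replicate 1). In the mock group the array apart and its nearest neighbour measured Aqp3 8.34 against 8.40 (replicate 4), Cdkal1 8.58 against 8.68 (replicate 4), Dusp1 10.33 against 10.29 (replicate 3), Egfr 5.67 against 5.81 (replicate 2), Ephx1 8.12 against 8.26 (replicate 4), Ercc2 7.82 against 7.71 (replicate 1), Nipal4 5.20 against 5.31 (replicate 1), Pdrg1 6.94 against 7.24 (replicate 4) and Prdm16 5.41 against 5.31 (replicate 2).

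In 13 of the 162 named genes (8.02%), and in 3.01% of all 19935 genes, every adriamycin array lay on 1 side of the untreated or mock arrays in R1E cells and on the opposite side in p53-/- cells. The named genes were picked largely for differences in R1E cells, and 152 of the 162 were called between the agents. The shares of named and of all genes therefore do not have the same base. For the 13 genes, the limma adjusted p in p53-/- cells was 0.0915 to 0.594, so that none was called there. Of these, 10 had an unadjusted limma p below 0.05. The genes were picked for separated arrays in the same cells, which favours a low unadjusted p, so this count is no support. The difference of these effects was not tested, and genotype, cell line and array set cannot be told apart in it. Lower after adriamycin in R1E and higher in p53-/- cells, in log2 change, were Ccnd1 -1.30 and 0.18, Ccne1 -0.89 and 0.28, Csrnp1 -0.73 and 0.49, Dusp1 -0.43 and 0.52, Gadd45b -1.22 and 0.62, Id4 -0.65 and 0.33, Plk3 -0.51 and 0.34 and Tgfb1 -1.26 and 0.20. Higher in R1E and lower in p53-/- cells were Apc 0.34 and -0.26, Cenpe 0.26 and -0.54, Mbnl2 0.96 and -0.38, Mdm4 0.37 and -0.97 and Ptprg 0.24 and -0.38.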

How the results depend on the processing

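The counts of genes higher or lower after adriamycin, at any size and at 2-fold, stayed within 1.5 times the value given under every alternative run. Of 3388 differences of the named genes under the alternatives 3385 kept their direction and side of the threshold and none reversed; Insyn2a gained a call with only the 8 arrays of the damage groups (0.21, adjusted p = 0.0328), and Pou5f1 with centred arrays (-0.15) and with a trended and robust prior (adjusted p = 0.0323). The median difference of genes above 100 kb (0.222) was 0.474 with dim genes left out, 0.174 with centred arrays, 0.219 with quantile normalization, 0.150 with a limit of 50 kb, 0.170 with one of 200 kb, and 0.214 to 0.227 with each array left out in turn. Of 240 pattern counts 16 moved by over 1.5 times: centring brought the lower genes that adriamycin lowered to 2846 with no UV call and 1789 with a fall after UV, the dim-gene limit left 502 raised by adriamycin without a UV call, and a minimum change from mock of 0.32 on the log2 scale left 883 higher and 1976 lower genes with neither agent past it. Without adriamycin replicate 3, the lower genes with neither call were 363 in place of 547. The causes were not tested.

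The replicate numbers did not pair the arrays: of 12 same-numbered pairs across groups 2 had correlated deviations above 0.1 (-0.142 to 0.162). Of 36 differently numbered pairs 9 did (-0.423 to 0.391). Deviations shared by differently numbered arrays were not modelled. With the replicate number as a block 3905 genes were higher and 4340 lower, and 212 and 56 at 2-fold. Signal over background was not recorded in the values used, and 4 arrays per group limit the precision.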
